A study of Homo sapiens with 9 samples.

Results

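The neuron differentiation and neurite genes described here are 10 genes of the neuronal cytoskeleton, the synapse and the growing neurite, chosen by symbol from the 19356 genes of the deposited table: TUBB3, MAP2, DCX, NEFL, NEFM, STMN2, GAP43, SYT1, UCHL1 and NRN1. All 10 were in the table. PolyA RNA of the human glioblastoma line LN229 was sequenced in 9 libraries. They are 3 of the ARNT2 knockout line C4, 3 of the ARNT2 knockout line B3 and 3 of wild-type cells (WT), all grown in DMEM with 5% FBS. ARNT2 was targeted by CRISPR in both knockout lines, the study asked about its part in glioblastoma growth and differentiation, and the labels name neither the guide nor the edit, nor say whether each line is 1 clone. No label ties the 3 libraries of a group to cultures of their own, so p-values measure the spread between these libraries, which may be technical.

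Neurons build their axons and dendrites on bundles of microtubules, whose tubulin isotypes and bound proteins differ from those of dividing cells, and on neurofilaments, which set axon calibre. Growth cones at the tips of extending neurites are rich in membrane-bound proteins such as GAP43, and synapses release transmitter when synaptotagmins sense calcium. In glioblastoma cells, which often co-express genes of several neural lineages, some of these genes serve as markers of neuronal differentiation. The level of an RNA does not show whether a cell is a neuron, and in bulk RNA fewer cells of a kind and less RNA per cell cannot be told apart.

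The bases upstream of the start sites of 4 members are shown because ARNT2 is a basic helix-loop-helix PAS factor. Factors of this family bind DNA at short cores that end in CGTG. The windows are from RefSeq on GRCh38.p14, each with the 250 bases before a start, 5′ to 3′ on the strand of the gene. Capitals mark GCGTG in the MAP2 window. In the TUBB3 window they mark GGGCGGG, known as the GC box. In the UCHL1 window they mark TATAAA read on the opposite strand. The window of NRN1, the member whose level moved most, had none of the letters searched. That window lies inside the gene as annotated, and the outermost start of NRN1 was not searched.
NRN1 (chr6:6004026-6004275, minus strand): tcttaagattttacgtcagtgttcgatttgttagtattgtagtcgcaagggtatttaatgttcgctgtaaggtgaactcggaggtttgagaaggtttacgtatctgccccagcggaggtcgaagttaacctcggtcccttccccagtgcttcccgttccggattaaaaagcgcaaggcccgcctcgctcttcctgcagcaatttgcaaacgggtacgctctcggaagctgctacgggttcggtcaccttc
UCHL1 (chr4:41256678-41256927, plus strand): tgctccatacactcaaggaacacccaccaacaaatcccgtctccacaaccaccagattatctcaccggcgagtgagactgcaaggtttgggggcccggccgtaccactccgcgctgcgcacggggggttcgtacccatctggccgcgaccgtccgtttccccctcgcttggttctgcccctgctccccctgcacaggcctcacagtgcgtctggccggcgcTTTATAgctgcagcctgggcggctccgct
TUBB3 (chr16:89923092-89923341, plus strand): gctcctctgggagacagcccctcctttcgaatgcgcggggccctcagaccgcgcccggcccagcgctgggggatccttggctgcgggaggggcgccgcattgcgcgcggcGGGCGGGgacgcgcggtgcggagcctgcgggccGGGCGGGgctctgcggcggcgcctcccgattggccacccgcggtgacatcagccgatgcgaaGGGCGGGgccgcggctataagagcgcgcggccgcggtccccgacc
MAP2 (chr2:209579082-209579331, plus strand): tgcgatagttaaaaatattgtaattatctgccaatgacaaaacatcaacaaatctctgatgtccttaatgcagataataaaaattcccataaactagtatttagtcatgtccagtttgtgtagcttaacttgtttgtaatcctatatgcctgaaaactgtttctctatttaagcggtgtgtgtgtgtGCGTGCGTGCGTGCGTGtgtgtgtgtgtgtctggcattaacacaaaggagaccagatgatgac

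Windows of 300 bases, 250 before and 50 after a start, were searched on both strands for 12 starts of TUBB3, MAP2, DCX, GAP43, SYT1, UCHL1 and NRN1. No window of NEFL, NEFM or STMN2 was searched. Some windows of MAP2 and of DCX overlap, so the 12 are not separate stretches. ACGTG, and with it the longer CACGTG, was in 0 of these 12 windows, against 21.4% and 7.26% of all 35116 promoter windows. GCGTG was in 1, the MAP2 window shown, as 4 copies that overlap by their last base, against 36.5% of all windows. These copies lie within a run of GT repeats. All MAP2 windows searched lie inside the gene as GENCODE 29 annotates it, and its outermost start was not searched. TCGTG was in 1, another MAP2 window, against 17.0%. GGACAGC, part of the site of the neuronal gene repressor REST, was in the GAP43 window and in 6.03% of all. TATAAA was in the UCHL1 window 29 bases before the start and in 1 DCX window, against 11.5% of all. GGGCGGG was in the TUBB3 window shown, 4 times of which the last lies after the start, against 33.1% of all. A match is a description of the letters and not of binding, and several members have other starts that were not searched.

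ARNT2 RNA itself was lower in both lines, at 37.1% of the WT level in C4 and 31.1% in B3, with log2 values of 12.05 to 12.22 in C4 and 11.86 to 11.91 in B3 against 13.56 to 13.59 in WT. Values are log2 values that the authors scaled between libraries. Read depth is unknown. The median replicate SD was 0.00935 for genes with log2 values under 2 and 0.0452 for those of 8 to 12. The test took in the 16457 genes whose antilog, averaged over the 9 libraries, reached 10. Calls rest on limma p-values adjusted over all of them by Benjamini-Hochberg, with 0.05 as the threshold. Changes are log2 fold changes ± SE with 3 libraries per group. In C4 against WT 56.2% of all genes tested were called, in B3 against WT 47.9% and in C4 against B3 56.4%. Of the calls, 50.2% were higher in C4 than in WT and 48.5% higher in B3 than in WT. These shares became 61.5% and 64.2% when libraries were set to the same total, and 60.8% and 55.2% when they were set to the same median, which moved the median of all genes by at most 0.03.

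Of the 10 members, 6 passed the filter and 4 did not. Members called were TUBB3, MAP2, NRN1, GAP43, SYT1 and UCHL1 in C4 against WT, with 3 higher and 3 lower, beside 28.2% of all genes tested called higher and 28.0% lower. In B3 against WT TUBB3 was called higher and NRN1, SYT1 and UCHL1 lower, beside 23.2% of all genes called higher and 24.6% lower. In C4 against B3, NRN1 and MAP2 were called higher and SYT1 and TUBB3 lower, beside 28.6% higher and 27.8% lower. TUBB3, SYT1 and UCHL1 were called with the same sign in C4 and in B3 against WT, as were 24.1% of all genes tested. These comparisons share the WT libraries. Such counts out of 6 genes do not set the members apart from the rest of the table.

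**Figure D1:**
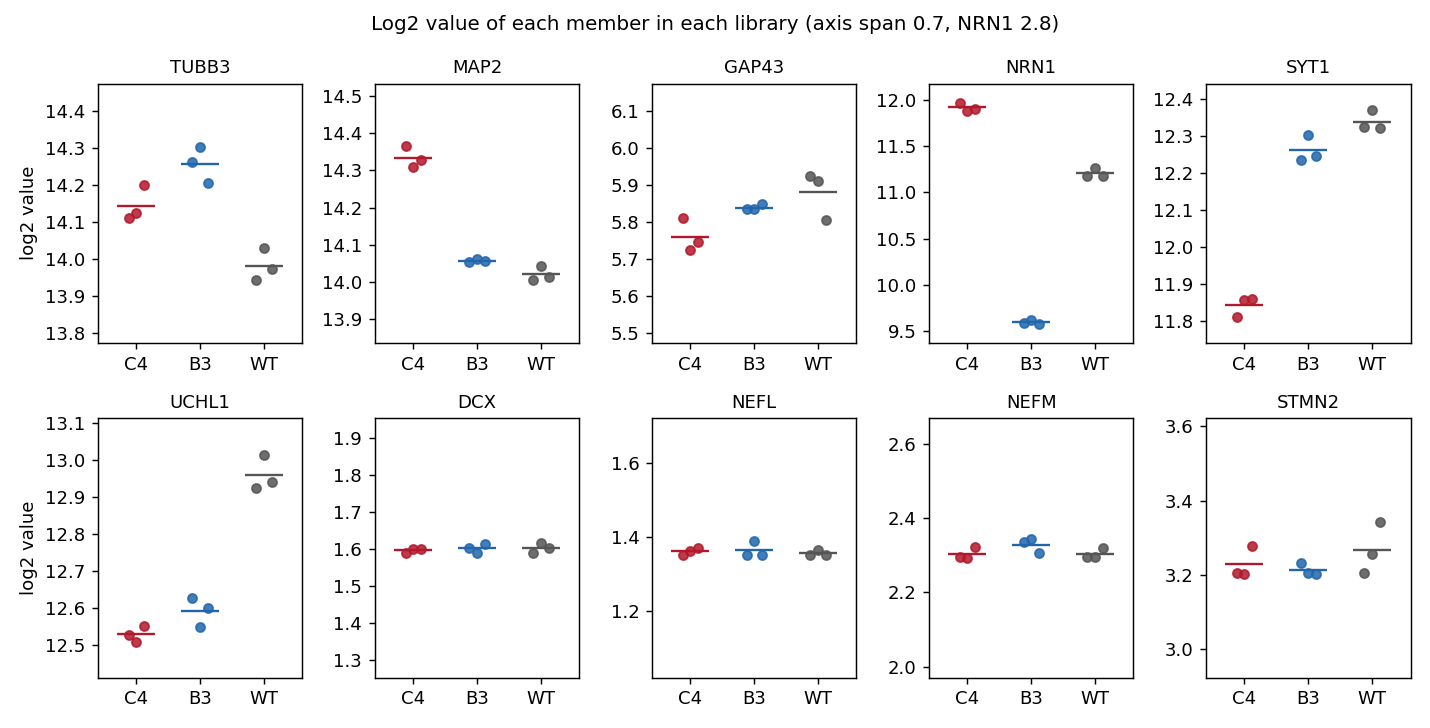
Log2 value of each member (vertical axis) in the 3 libraries of C4, B3 and WT (points), with the group mean as a line; every panel spans 0.7 on the log2 scale except NRN1, which spans 2.8. NRN1 lies between 11.88 and 11.97 in C4 and between 9.58 and 9.62 in B3, on either side of WT, while DCX, NEFL, NEFM and STMN2 stay at 3.34 or below in every library.

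Microtubule genes come first. TUBB3 encodes class III beta-tubulin, a tubulin isotype typical of neurons that tumour cells also express (ENSG00000258947.6, chromosome 16, 89921392 to 89938761, plus strand, GRCh38). Its log2 values were 14.11, 14.12 and 14.20 in C4, 14.26, 14.30 and 14.21 in B3, and 13.95, 14.03 and 13.97 in WT. All 6 knockout libraries lay above all 3 WT libraries. TUBB3 rose by 0.16 ± 0.03 in C4 against WT (limma adjusted p = 3.48e-05) and by 0.28 ± 0.03 in B3 against WT (adjusted p = 3.05e-08), that is to 112% and 121% of the WT level. C4 was below B3 by a change of -0.11 ± 0.03 (adjusted p = 0.00166).

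Most other tubulin genes were also higher. Of 13 alpha- and beta-tubulin genes tested, TUBB3 included, 9 rose and 1 fell in C4 (median 0.14), and 11 rose and 2 fell in B3 (median 0.23), where the median of all genes tested was 0.00 in each comparison. TUBA1A, a major alpha-tubulin of developing neurons, rose by 0.58 ± 0.02 in C4 and by 0.31 ± 0.02 in B3. TUBB, the most abundant beta-tubulin per length here, was at 0.07 ± 0.03 in C4 (adjusted p = 0.0512) and rose by 0.41 ± 0.03 in B3. TUBB6, a broadly expressed isotype, rose by 0.22 ± 0.02 in C4 and by 0.32 ± 0.02 in B3. TUBB4A, an isotype of neurons and oligodendrocytes, went the other way, with changes of -0.50 ± 0.06 in C4 and -0.95 ± 0.06 in B3.

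Levels within a gene family were compared as antilogs per kilobase of merged exons. On that scale TUBB3 made up 5.26% to 5.59% of the RNA of 8 beta-tubulin genes in C4, 4.83% to 5.08% in B3 and 5.01% to 5.33% in WT. The ranges of C4 and of B3 each overlap with that of WT. Beta-tubulin genes are alike in coding sequence, and exons of TUBB3 also overlap those of AC092143.1, a gene on the same strand, so the counting could have split or dropped some reads.

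MAP2 encodes a microtubule-stabilising protein of dendrites (ENSG00000078018.19, chromosome 2, 209424058 to 209734118, plus strand). It had log2 values of 14.37, 14.31 and 14.33 in C4, 14.05, 14.06 and 14.06 in B3, and 14.00, 14.04 and 14.01 in WT. The C4 libraries stood apart from all others, and the B3 libraries lay just above those of WT. MAP2 rose by 0.31 ± 0.02 in C4 against WT (limma adjusted p = 2.77e-11), to 124% of the WT level, and C4 exceeded B3 by 0.28 ± 0.02 (adjusted p = 2.17e-10). In B3 against WT the change was 0.04 ± 0.02 with a 95% interval of -0.01 to 0.08 and adjusted p = 0.186. It was called there after scaling to the same total (0.07, adjusted p = 0.00839), and its adjusted p spanned 0.00839 to 0.332 across 19 alternatives.

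Among 14 microtubule-associated and axonal motor genes tested, MAP2 included, 9 rose and 1 fell in C4 (median 0.12), and 4 rose and 3 fell in B3 (median 0.01). MAP1A, which binds microtubules of mature neurons, rose by 0.36 ± 0.04 in C4 and changed by -0.43 ± 0.04 in B3. MAPT, the gene of the axonal protein tau, rose by 0.10 ± 0.03 in C4 and changed by -0.34 ± 0.03 in B3. KIF5C, a neuronal kinesin heavy chain gene, rose by 0.26 ± 0.03 in C4 and by 0.30 ± 0.03 in B3. DCLK2, a doublecortin-like kinase gene, changed by -0.14 ± 0.04 in C4 and by -0.30 ± 0.04 in B3.

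DCX itself, which encodes doublecortin, the microtubule protein of migrating young neurons (ENSG00000077279.18, chromosome X, 111293779 to 111412429, minus strand), did not pass the filter. Its values ran from 1.59 to 1.62 over the 9 libraries. The groups overlap, and 7 of 9 libraries lay within 0.02 of the lowest.

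Filament and stathmin members were also near the floor of the table. NEFL and NEFM encode the light and medium neurofilament chains and lie side by side on chromosome 8 (ENSG00000277586.2, 24950955 to 24957110, minus strand, and ENSG00000104722.13, 24913012 to 24919098, plus strand). NEFL had values of 1.35 to 1.37 in C4, 1.35 to 1.39 in B3 and 1.35 to 1.36 in WT. NEFM had values of 2.29 to 2.32 in C4, 2.31 to 2.35 in B3 and 2.30 to 2.32 in WT. For both genes the groups overlap.

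Of 10 intermediate filament genes 6 were tested, with 2 higher and 1 lower in C4 and again 2 higher and 1 lower in B3. The neuronal filament gene INA had values of at most 0.33 in every library. The filament RNA of these cells was, per length, mostly that of VIM, the mesenchymal filament gene, with 67.5% to 69.7% of the RNA of the 10 genes in C4, 78.1% to 78.8% in B3 and 74.3% to 76.9% in WT. NES and SYNM held nearly all of the rest, and NEFM, the higher of the 2 neurofilament members, held at most 0.0017%. SYNM, which encodes the filament linker synemin, rose by 0.70 ± 0.03 in C4 and changed by -0.10 ± 0.03 in B3.

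STMN2 encodes a stathmin that destabilises microtubules in growth cones (ENSG00000104435.13, chromosome 8, 79610814 to 79666175, plus strand). Its log2 values were 3.20, 3.20 and 3.28 in C4, 3.23, 3.20 and 3.20 in B3, and 3.20, 3.26 and 3.34 in WT. The groups overlap, and its mean antilog of 9.42 lay just under the filter. Of its 3 paralogues 2 were tested. STMN1, the stathmin of dividing cells, made up 64.0% to 65.4% of stathmin RNA per length in C4, 70.5% to 70.9% in B3 and 66.4% to 67.1% in WT, and STMN3 nearly all of the rest. Of these 2, STMN3 rose in C4 and STMN1 in B3. STMN2 had at most 0.0309% of stathmin RNA in any library.

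Neurite growth members follow. NRN1 encodes neuritin, a small protein anchored in the membrane by a lipid tail that promotes neurite outgrowth and is induced by neuronal activity (ENSG00000124785.8, chromosome 6, 5997999 to 6007605, minus strand). Its log2 values were 11.97, 11.88 and 11.90 in C4, 9.59, 9.62 and 9.58 in B3, and 11.17, 11.26 and 11.18 in WT. Every C4 library lay above every WT library, and every B3 library lay below, with no overlap between any of the groups. NRN1 rose by 0.71 ± 0.04 in C4 against WT (limma adjusted p = 7.21e-14), to 164% of the WT level. In B3 against WT it changed by -1.61 ± 0.04 (adjusted p = 4.21e-20), to 32.8% of the WT level. C4 exceeded B3 by 2.32 ± 0.04 (adjusted p = 1.19e-23).

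The difference between the lines was thus 4.995-fold, and by absolute change NRN1 ranked 8 among the 16457 genes tested in C4 against B3. It ranked 11 in B3 against WT and 227 in C4 against WT. Over the 19 alternatives its change stayed between 0.69 and 0.74 in C4 and between -1.62 and -1.58 in B3. The RefSeq start used for the window above lies inside the gene as GENCODE 29 annotates it, downstream of its outermost start.

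**Figure D2:**
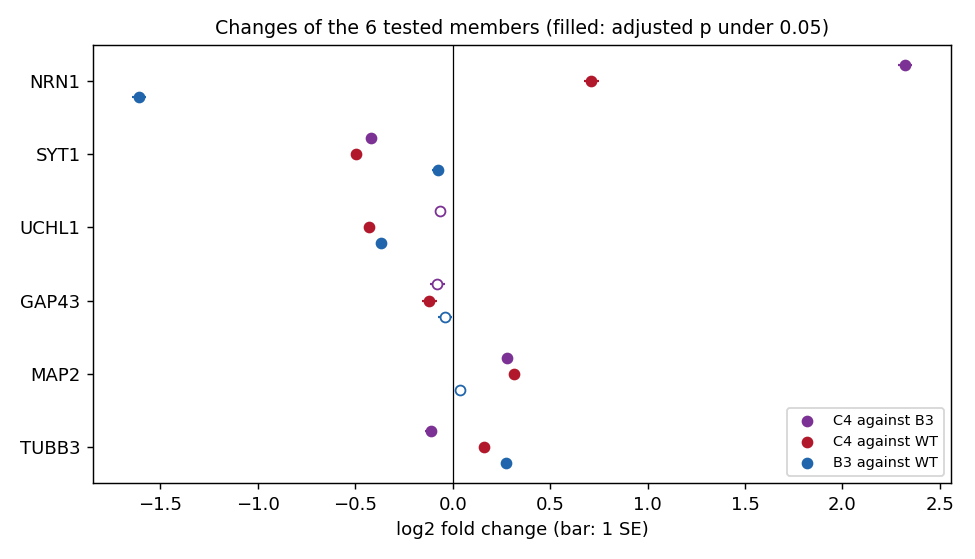
Log2 fold change (horizontal axis) with 1 SE for the 6 tested members in C4 against B3, C4 against WT and B3 against WT; filled points have an adjusted p under 0.05. NRN1 stands to the right in C4 against WT (0.71) and to the left in B3 against WT (-1.61), and UCHL1 lies to the left in both.

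The genes whose 9 values, each less the WT mean, were closest to those of NRN1 were CGREF1, MGST1 and CPXM2. Their root mean square differences from NRN1 were 0.26, 0.27 and 0.29 on the log2 scale, where the median over 14328 candidate genes was 1.02. CGREF1, a growth regulator gene with an EF-hand domain, was at 0.44 ± 0.05 in C4 and -1.26 ± 0.05 in B3. The microsomal glutathione transferase gene MGST1 was at 0.30 ± 0.04 in C4 and -1.80 ± 0.04 in B3. The carboxypeptidase-like gene CPXM2 was at 0.30 ± 0.03 in C4 and -1.86 ± 0.03 in B3. All 3 shared the higher C4 and lower B3 levels, which follows from their choice by closeness to NRN1. In each the rise in C4 was smaller than that of NRN1.

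GAP43 encodes a growth cone protein bound to the inner membrane (ENSG00000172020.12, chromosome 3, 115623324 to 115721490, plus strand). It was weakly expressed, with log2 values of 5.81, 5.72 and 5.75 in C4, 5.83, 5.83 and 5.85 in B3, and 5.92, 5.91 and 5.80 in WT. The highest C4 library overlaps with the lowest WT library. GAP43 fell by 0.12 ± 0.04 in C4 against WT (limma adjusted p = 0.00788). It was not called in B3 against WT, at -0.04 ± 0.04 with a 95% interval of -0.12 to 0.04 (adjusted p = 0.385), nor in C4 against B3, at -0.08 ± 0.04 (adjusted p = 0.0732). Without C4 replicate 1 the last of these was called at -0.10 (adjusted p = 0.0325), and its adjusted p spanned 0.0325 to 0.238 across the alternatives. The C4 and B3 libraries did not overlap. How the authors' transform treats changes and spread at so low a level was not tested.

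Of 22 growth cone and neurite adhesion genes tested, NRN1 and GAP43 included, 8 rose and 9 fell in C4 (median -0.02), and 6 rose and 7 fell in B3 (median -0.02). After scaling to the same total both medians turned positive, at 0.01 in C4, with 8 higher and 7 lower, and 0.02 in B3, with 8 higher and 6 lower. L1CAM, the neural adhesion molecule gene, rose by 0.52 ± 0.05 in C4 and changed by -0.23 ± 0.05 in B3. CNTN1, the contactin 1 gene, changed by -0.14 ± 0.03 in C4 and by -0.69 ± 0.03 in B3. MARCKSL1, whose product binds actin and the membrane, rose by 0.44 ± 0.03 in C4 and by 0.23 ± 0.03 in B3. NEGR1, a neuronal growth regulator gene, changed by -0.41 ± 0.03 in C4 and by -0.34 ± 0.03 in B3. L1CAM and NRN1 were each higher in C4 and lower in B3 than in WT, while NEGR1 and CNTN1 were lower in both lines. Among 5 collapsin response mediator genes, which relay guidance cues to the cytoskeleton, 1 rose and 1 fell in C4, and 1 rose and 2 fell in B3. DPYSL4 was the one that fell in C4, with a change of -0.70 ± 0.03, and was at 0.06 ± 0.03 in B3 (adjusted p = 0.113).

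Synaptic and ubiquitin members were lower. SYT1 encodes synaptotagmin 1, the calcium sensor for fast transmitter release (ENSG00000067715.13, chromosome 12, 78863993 to 79452008, plus strand). Its log2 values were 11.81, 11.86 and 11.86 in C4, 12.23, 12.30 and 12.24 in B3, and 12.32, 12.37 and 12.32 in WT. The C4 libraries lay below all others, and the B3 and WT libraries did not overlap but lay close together. SYT1 fell by 0.50 ± 0.03 in C4 against WT (limma adjusted p = 4.80e-13), to 70.9% of the WT level, and C4 was below B3 with a change of -0.42 ± 0.03 (adjusted p = 9.08e-12).

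In B3 against WT the change of SYT1 was -0.08 ± 0.03 (limma adjusted p = 0.0264), to 94.8% of the WT level. That call ended without B3 replicate 1 (adjusted p = 0.118), without B3 replicate 3 (0.0796) and without WT replicate 2 (0.123). It also ended after scaling to the same total (0.198, change -0.04) or the same median (0.0671), and its adjusted p spanned 0.0124 to 0.198 across the alternatives. The genes closest to SYT1 over the 9 libraries were PPP1R16A, ZDBF2 and C19orf48, with root mean square differences of 0.03 each against a median of 0.31 over the candidates.

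SYT1 and its relatives did not move together. Of 16 synaptotagmin and synaptotagmin-like genes tested, SYT1 included, 6 rose and 5 fell in C4 (median -0.02). In B3 2 rose and 5 fell (median -0.01). After scaling to the same total 7 rose and 4 fell in C4 (median 0.01), and 2 rose and 3 fell in B3 (median 0.02). SYT11, a synaptotagmin that does not bind calcium, rose by 0.51 ± 0.03 in C4 and by 0.33 ± 0.03 in B3. SYT12 changed by -0.61 ± 0.05 in C4 and by -1.06 ± 0.05 in B3, and SYTL5, a synaptotagmin-like gene, by -1.14 ± 0.04 in C4, with 0.04 ± 0.04 in B3 (adjusted p = 0.421). Per length, SYT1 held 19.2% to 20.1% of the RNA of 13 synaptotagmin genes in C4, 26.3% to 27.3% in B3 and 30.5% to 32.7% in WT. SYT11 held 71.4% to 73.1% in C4, 64.8% to 65.8% in B3 and 57.8% to 60.0% in WT. For both genes the 3 groups did not overlap. SYT1 and SYT11 together held most of this sum, so a rise of either lowers the share of the other. The lower share of SYT1 in B3 is thus not a measure of SYT1 alone.

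Of 34 genes tested for vesicle docking and fusion, 12 rose and 8 fell in C4 (median 0.03), and 5 rose and 13 fell in B3 (median -0.02). After scaling to the same total 9 rose and 11 fell in B3 (median 0.01). SNAP25, the neuronal fusion protein gene named among the neuron markers, changed by -0.23 ± 0.03 in C4 (adjusted p = 3.84e-06) and by -0.14 ± 0.03 in B3 (adjusted p = 0.00142), with log2 values of 11.20 to 11.28 in C4, 11.29 to 11.36 in B3 and 11.42 to 11.50 in WT. SYP was not called, at 0.03 ± 0.04 in C4 (adjusted p = 0.551) and 0.09 ± 0.04 in B3 (adjusted p = 0.112), where the B3 libraries lay above those of WT. ELAVL3 was at -0.01 ± 0.03 in C4 (adjusted p = 0.708) and 0.01 ± 0.03 in B3 (adjusted p = 0.812), and ELAVL4 at -0.01 ± 0.02 in C4 (adjusted p = 0.626) and -0.02 ± 0.02 in B3 (adjusted p = 0.535), so neither was called. STX1A, the partner of SNAP25 at the plasma membrane, changed by -0.46 ± 0.04 in C4 and was at 0.06 ± 0.04 in B3 (adjusted p = 0.276). UNC13A, a vesicle priming gene, changed by -0.44 ± 0.05 in C4 and by -0.31 ± 0.05 in B3. PCLO, an active zone scaffold gene, rose by 0.44 ± 0.04 in C4 and was at 0.07 ± 0.04 in B3 (adjusted p = 0.163). STX3, a related syntaxin gene, rose by 0.34 ± 0.03 in C4 and by 0.16 ± 0.03 in B3. SYT1, SNAP25 and UNC13A were thus lower than in WT in both lines, with the limit on SYT1 in B3 given above.

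UCHL1 encodes an abundant ubiquitin hydrolase of neurons, also known as PGP9.5 (ENSG00000154277.12, chromosome 4, 41256413 to 41268455, plus strand). Its log2 values were 12.53, 12.51 and 12.55 in C4, 12.63, 12.55 and 12.60 in B3, and 12.92, 13.01 and 12.94 in WT. All 6 knockout libraries lay below all 3 WT libraries, and C4 and B3 overlapped. UCHL1 fell by 0.43 ± 0.03 in C4 against WT (limma adjusted p = 5.36e-12), to 74.2% of the WT level. In B3 against WT it fell by 0.37 ± 0.03 (adjusted p = 1.91e-10), to 77.5%.

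The difference of UCHL1 between C4 and B3 was -0.06 ± 0.03, with a 95% interval of -0.12 to -0.01 and adjusted p = 0.0585. It was called after scaling to the same total (adjusted p = 0.0450), in a fit of the compared groups (0.0431), and without B3 replicate 2 (0.0231), WT replicate 1 (0.0401) or WT replicate 2 (0.0442), and its adjusted p spanned 0.0231 to 0.237 across the alternatives. Of 4 genes of its enzyme family, UCHL1 included, 1 rose and 2 fell in C4, and 1 rose and 1 fell in B3. An antisense gene, UCHL1-AS1, overlaps its exons, and no source says whether strand was used in the counting. UCHL1-AS1 had a mean antilog of 2.44, under the filter, against 6686 for UCHL1, neither of them per length. ATG101, PPM1J and VCAM1 were the genes with values closest to those of UCHL1, with root mean square differences of 0.04 each against a median of 0.34 over the candidates.

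**Figure D3:**
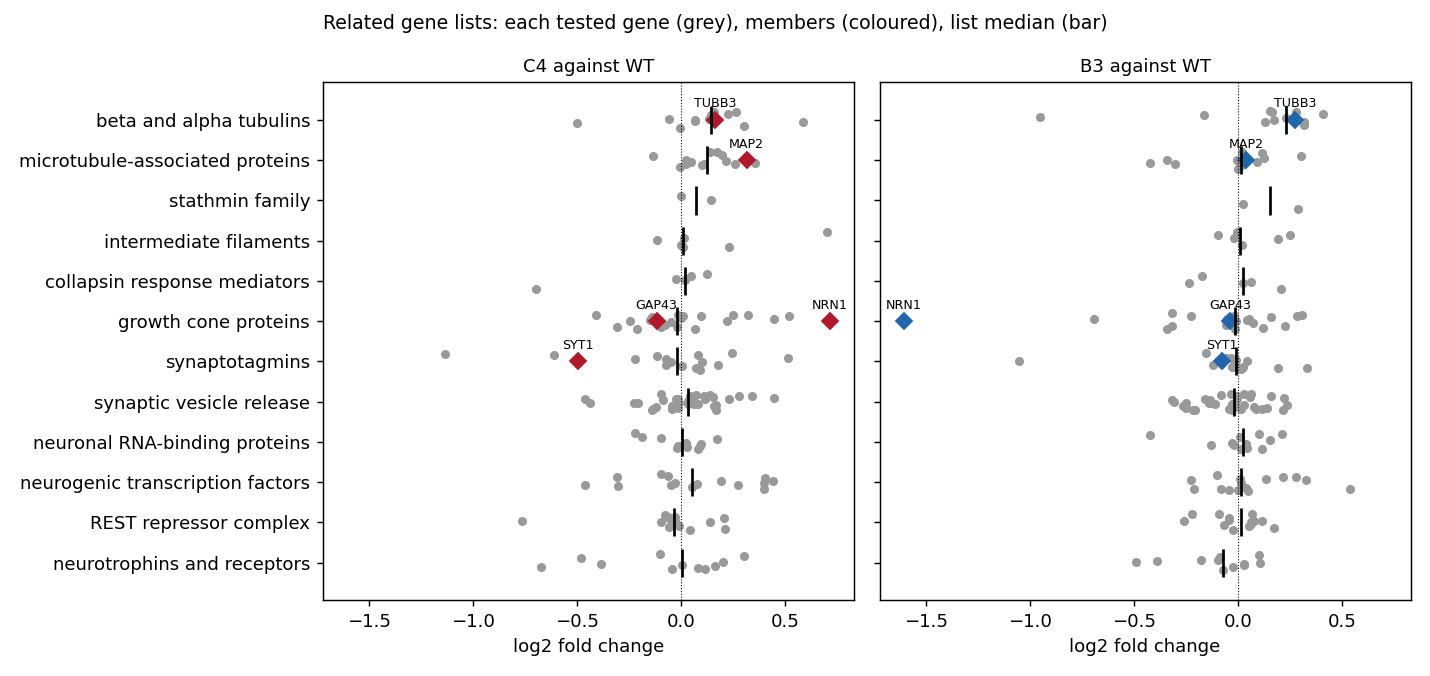
Log2 fold change (horizontal axis) in C4 against WT and B3 against WT of every tested gene in 12 related lists (grey points), with the 5 members in these lists as coloured diamonds and the list median as a black bar. TUBB3 lies among the other tubulins in both lines, and SYT1 and NRN1 lie away from their list medians in C4.

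The members also differed widely in level. Per kilobase of exon the mean antilog of TUBB3 was 4092 in C4, 4424 in B3 and 3656 in WT, the highest of the 10 in each group. UCHL1 had 2591 in C4, 2707 in B3 and 3492 in WT, and in WT its libraries overlapped with those of TUBB3 (3407 to 3627 against 3560 to 3776). MAP2 came next with 1787 in C4, 1474 in B3 and 1437 in WT. NRN1 had 1661 in C4, 332 in B3 and 1014 in WT, and SYT1 had 565 in C4, 756 in B3 and 797 in WT. The order of NRN1 and SYT1 therefore differed between the lines, with NRN1 above SYT1 in C4 and in WT and below it in B3.

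GAP43 followed at 26.0 in C4, 27.4 in B3 and 28.2 in WT, and STMN2, NEFM, NEFL and DCX in that order, from 4.08 for STMN2 in WT down to 0.298 for DCX in WT. These last values lay near the floor, where the order also depends on exon length. Before division by length DCX had a mean antilog of 3.03, above the 2.57 of NEFL, with 10.2 against 4.33 kb of exon. Among all 17753 genes with an exon length, TUBB3 stood at percentile 91.8 in C4, 92.4 in B3 and 90.5 in WT. GAP43 was at percentile 25.3 in C4, 25.7 in B3 and 25.7 in WT, and NEFM, the third lowest of the members, at 5.95, 6.01 and 5.91. TUBB3, UCHL1 and MAP2 were well expressed in these glioblastoma cells, and the lowest of their percentiles was 75.3, for MAP2 in WT. SYT1 was nearer the middle, at 56.4 in C4, 62.4 in B3 and 63.3 in WT. NRN1 depended on the line, at 78.2 in C4, 48.1 in B3 and 68.3 in WT. The neurofilament and doublecortin genes that mark neurons were at the bottom of the table. The 6 other neuron markers were as uneven. SNAP25 had log2 values of 11.20 to 11.50 over the 9 libraries and SYP, a synaptic vesicle protein gene, 8.23 to 8.38. The neuronal RNA-binding protein genes ELAVL3, at 4.61 to 4.71, and ELAVL4, at 4.08 to 4.16, were low, and RBFOX3, at 3.25 to 3.34, and INA, at 0.32 to 0.33, did not pass the filter. These log2 values are not per length.

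**Figure D4:**
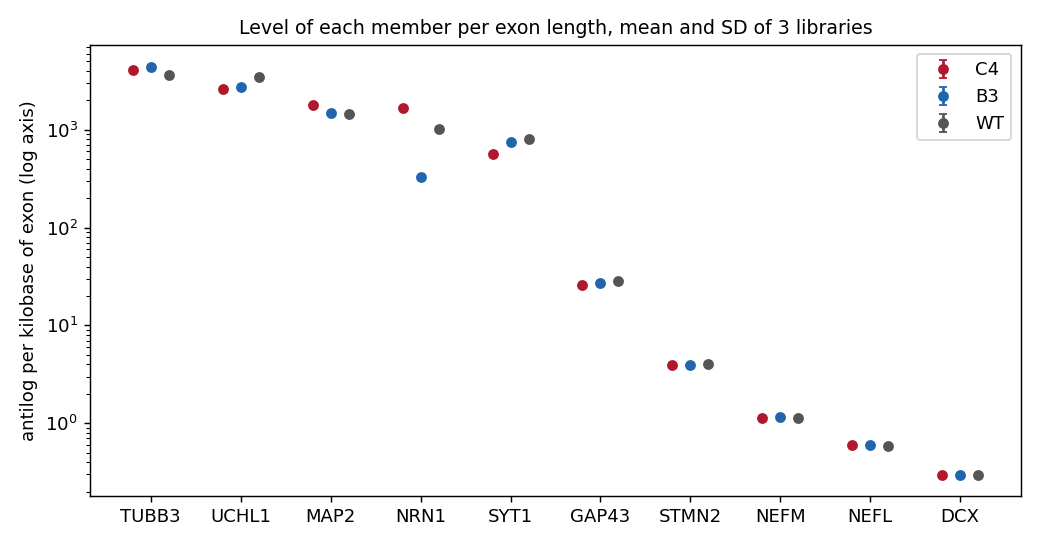
Mean antilog per kilobase of exon (vertical log axis, error bars SD of 3 libraries, mostly smaller than the points) of the 10 members in C4, B3 and WT, ordered by WT level. TUBB3 is at 3656 in WT and DCX at 0.298, and NRN1 is the member whose groups are farthest apart.

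Genes next to the members on the chromosome were set beside them. Of all genes tested, 28.2% were called higher and 28.0% lower in C4 against WT. In B3 against WT these shares were 23.2% and 24.6%. Around NRN1 the 20 tested neighbours, 10 on each side, had a median change of 0.01 in C4 against WT and of -0.04 in B3 against WT, far from the 0.71 and -1.61 of NRN1. Around MAP2 the 20 neighbours had a median of -0.07 in C4, with 3 higher and 12 lower, so MAP2 rose in a stretch of lower genes. Around UCHL1 the medians were -0.03 in C4 and -0.03 in B3, and around SYT1 -0.02 in C4 and 0.05 in B3. TUBB3 lies near the end of chromosome 16. Its 17 neighbours had medians of 0.03 in C4, with 7 higher and 1 lower, and -0.01 in B3, with 2 higher and 5 lower. GAP43 had neighbours with medians of -0.03 in C4 and -0.0046 in B3. Around the barely detected NEFL and NEFM 16 of 20 neighbours fell in B3, with a median of -0.16, against 0.08 in C4. Around STMN2 11 of 20 fell in C4, with a median of -0.10.

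**Figure D5:**
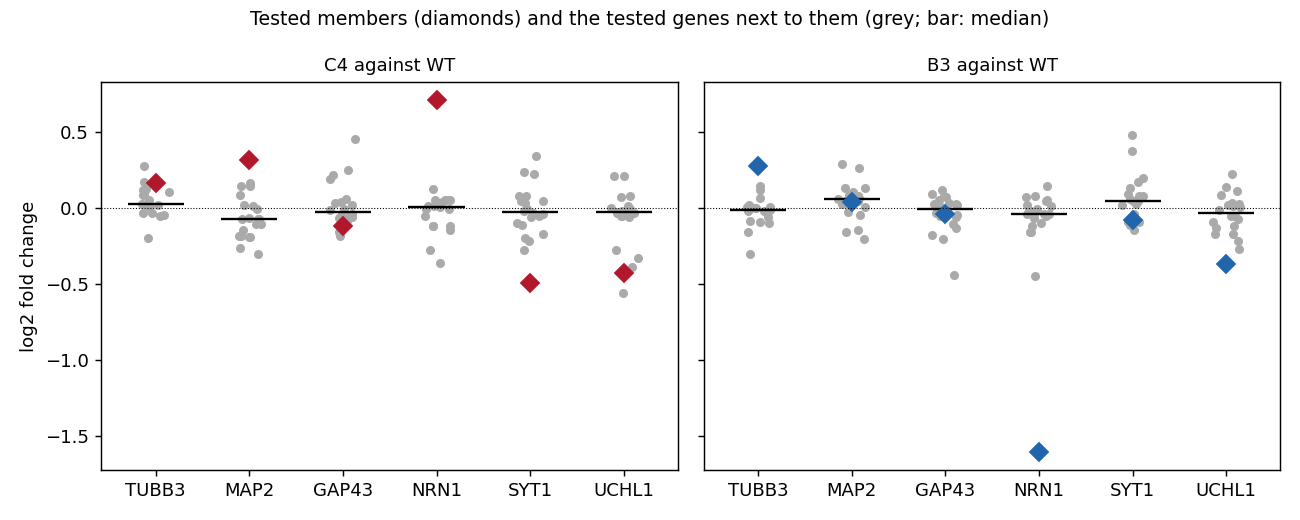
Log2 fold change (vertical axis) in C4 against WT and B3 against WT of the 6 tested members (diamonds) and of the tested genes next to each on its chromosome (grey points, 17 for TUBB3 and 20 for the others), with the neighbours' median as a bar. NRN1 lies above all its neighbours in C4 and below all of them in B3.

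Markers of other cell types moved as well, although LN229 is a cell line. Their antilogs were summed without dividing by length. Summed antilogs of 9 astrocyte markers were 99401 to 103950 in C4 and 96928 to 97261 in B3 against 83544 to 88934 in WT, with 4 of 8 tested rising and 1 falling in C4, and 3 rising and 2 falling in B3. AGT rose by 0.94 ± 0.05 in C4 and changed by -0.14 ± 0.05 in B3. GJA1 changed by -0.38 ± 0.03 in C4 and rose by 0.16 ± 0.03 in B3. SLC1A3 rose by 0.31 ± 0.03 in C4 and changed by -0.30 ± 0.03 in B3. Summed antilogs of 10 oligodendrocyte lineage markers were 469093 to 476067 in C4 and 420140 to 428496 in B3 against 507260 to 515906 in WT, with 5 rising and 3 falling in C4, and 2 rising and 6 falling in B3. Although the sum was lower in C4, the median change of these genes there was 0.17, against -0.16 in B3. CSPG4, with a mean antilog of 137300, changed by -0.65 ± 0.03 in C4 and by -0.52 ± 0.03 in B3. MAG changed by -0.71 ± 0.02 in C4 and by -0.36 ± 0.02 in B3. PDGFRA changed by -0.63 ± 0.03 in C4 and by -0.21 ± 0.03 in B3. OLIG1 rose by 0.66 ± 0.05 in C4 and by 0.46 ± 0.05 in B3. Immune markers, 5 in the table, summed to 1706 to 1729 in C4 and 2024 to 2100 in B3 against 1709 to 1761 in WT, where CD68 was the 1 of 3 tested that rose in B3 and 1 rose in C4 after scaling to the same total. Endothelial markers, 5 in the table, summed to 607 to 627 in C4 and 509 to 533 in B3 against 610 to 647 in WT, with 1 rising and 1 falling of 4 tested in C4, and 1 rising and 2 falling in B3. VWF was at -0.05 ± 0.05 in C4 (limma adjusted p = 0.419) and changed by -0.41 ± 0.05 in B3. The defining markers ALDH1L1 of astrocytes, PTPRC and CD3E of immune cells and TEK of endothelium had mean antilogs of 2.46, 5.15, 3.67 and 5.44, and S100B made up most of the astrocyte sum, CD68 of the immune sum and VWF of the endothelial sum. Their part in the changes of the members was not tested.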

How the data were processed

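The deposited values are log2 values per gene and library, scaled between libraries by the authors. The tools named are DESeq2, Subread 1.6.3 and STAR 2.7.3a, with build hg38 and no roles or order, per the submitters' processing notes. The transform is not named in the sources used here. Its shape, with a median replicate SD of 0.0452 at values of 8 to 12 and 0.00935 under 2, resembles that of a regularized log. Depth is unknown, so no counting intervals are given.

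The members, gene lists and tests were chosen with earlier results of these data known. Of 19356 genes, 2899 with a mean antilog under 10 were left out. The 9 libraries were fitted together in limma 3.58.1 under R 4.3.3, with a coefficient per group and an intensity trend, two-sided and adjusted over 16457 genes, and the script was tested on simulated data. With 3 against 3 libraries an exact permutation test cannot go below p = 0.1, so none was run. Named genes were the members, the up to 4 called genes per list with the largest changes against WT, with a change of at least 0.3 and a mean antilog of at least 50, and the 3 genes closest in pattern to each of the 3 members that changed most. SNAP25, SYP, ELAVL3, ELAVL4, INA and RBFOX3 come from the neuron marker list, while VIM, NES, STMN1, STMN3, ALDH1L1, PTPRC, CD3E, TEK, S100B, CD68 and REST were named after their values were seen. Positions and merged exon lengths are from GENCODE 29, which held 92.7% of the tested symbols. Alternatives were other pseudocounts, filters, scalings and moderation, fits of the compared groups, a replicate block and leaving out each library. The correlation of deviations showed no pairing by replicate number, so libraries were not treated as paired. With 3 libraries per group it cannot show that there was none.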

Additional observations from a re-analysis of the deposited data

Results flagged for a closer look

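For 4 members the effect in C4 and the effect in B3, each against WT, differed by limma's test of C4 against B3. NRN1 was higher in C4 than in B3 by 2.32 ± 0.04 (adjusted p = 1.19e-23), with opposite signs against WT in the 2 lines in 3 of 3 libraries each. MAP2 was higher in C4 than in B3 by 0.28 ± 0.02 (adjusted p = 2.17e-10). SYT1 was lower in C4, with a change of -0.42 ± 0.03 (adjusted p = 9.08e-12), and TUBB3 likewise at -0.11 ± 0.03 (adjusted p = 0.00166). Beside these 4 members, 56.4% of all genes tested were called in C4 against B3.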

How the results depend on the processing

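Over 19 alternatives the number of members called stayed at 6 in C4 against WT, while the counts of 4 in B3 against WT and in C4 against B3 stayed within 1.5 times. For example, 3 were called in B3 against WT at the same median and 5 in C4 against B3 at the same total, and these were not the only such settings. The numbers of all genes called stayed within 1.5 times of the main counts. Of 342 member changes recomputed, 330 kept direction and call, 7 gained and 5 lost the call, and 0 turned direction. Those that lost it were all SYT1 in B3 against WT, and those that gained it were UCHL1 and GAP43 in C4 against B3 and MAP2 in B3 against WT. With the replicate block 8961 genes were called in C4 against WT, 7504 in B3 against WT and 9017 in C4 against B3, and no member's call changed. Deviations of same-numbered libraries from their group means correlated at -0.229 to 0.016 across genes, and those of differently numbered libraries at -0.120 to 0.225. The 4 members below the filter were not tested. How the authors' transform treats changes at such low values was not tested. The same holds for weakly expressed genes that passed the filter, such as GAP43, ELAVL3 and ELAVL4, whose changes and SE may be affected.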

Other observations

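Regulators of neuronal identity moved in both directions. Of 15 neurogenic transcription factor genes tested, 6 rose and 5 fell in C4 (median 0.05), where 8 rose and 3 fell after scaling to the same total or the same median, and 5 rose and 2 fell in B3 (median 0.01). POU3F2, a neural POU factor gene, rose by 0.40 ± 0.03 in C4 and by 0.54 ± 0.03 in B3, and ISL1, a motor neuron factor gene, by 0.40 ± 0.04 in C4 and by 0.33 ± 0.04 in B3. NEUROG2, a proneural factor gene, rose by 0.44 ± 0.05 in C4 and was at -0.08 ± 0.05 in B3 (adjusted p = 0.159). EBF1 changed by -0.46 ± 0.03 in C4 and rose by 0.13 ± 0.03 in B3. Among 12 neuronal RNA-binding protein genes tested, 4 rose and 2 fell in C4 and again 4 rose and 2 fell in B3, with CELF2 at -0.10 ± 0.04 in C4 (adjusted p = 0.0627) and -0.42 ± 0.04 in B3.

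Of 14 genes of the REST repressor complex, which silences neuronal genes outside neurons, 3 rose and 5 fell in C4 (median -0.03), where 4 rose and 2 fell after scaling to the same total, and 6 rose and 4 fell in B3 (median 0.01). In B3 6 were called in all without B3 replicate 1, 6 without B3 replicate 2 and 5 without WT replicate 2, against 10. RCOR2, a corepressor gene, changed by -0.77 ± 0.04 in C4 and by -0.22 ± 0.04 in B3. REST itself had log2 values of 12.84 to 12.96 in C4, 12.88 to 12.90 in B3 and 12.96 to 13.02 in WT, and its change of -0.07 ± 0.03 in C4 (adjusted p = 0.0470) lost the call under 11 of 19 alternatives. In B3 REST changed by -0.09 ± 0.03 (adjusted p = 0.00894), with no overlap with WT. That call ended after scaling to the same total (adjusted p = 0.0959) and without WT replicate 2 (0.0555), and the adjusted p spanned 0.0024 to 0.0959 across the alternatives. Of 11 neurotrophin and receptor genes tested, 4 rose and 4 fell in C4, and 0 rose and 6 fell in B3, where 2 rose and 4 fell after scaling to the same total. NGFR, the low-affinity neurotrophin receptor gene, rose by 0.16 ± 0.04 in C4 and changed by -0.49 ± 0.04 in B3, and ARC, an activity-induced gene, changed by -0.67 ± 0.04 in C4 and by -0.39 ± 0.04 in B3. GFRA1 changed by -0.48 ± 0.03 in C4 and was at 0.03 ± 0.03 in B3 (limma adjusted p = 0.5). NTRK2 changed by -0.39 ± 0.05 in C4 and was at 0.03 ± 0.05 in B3 (limma adjusted p = 0.652).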
